A study of Mus musculus with 6 samples.

Results

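Glycolysis and the response to low oxygen were followed through 34 genes in E14 mouse embryonic stem cells, an established cell line, with and without knockdown of Tdg. Tdg encodes thymine DNA glycosylase, an enzyme of base excision repair. The genes were chosen by name and with earlier results of these data known. They comprise glycolytic enzymes and transporters, controllers of pyruvate use, and genes of oxygen sensing or known to respond to hypoxia. A gene was measured by the row of the array table that names it alone, and where several rows did, by the one with the highest mean over all arrays. This gave 31 of the 34 genes a row, among 19938 named genes in all.

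RNA was measured on whole-transcript Affymetrix arrays in 3 control samples and 3 Tdg knockdown samples. Both groups were E14 cells kept on 0.1% gelatin in medium with 15% serum and LIF (1000 units/ml), infected with lentivirus at a multiplicity of 10, and selected with puromycin (2 ug/ml) from 48 h on. The labels do not name the vector that the controls received, and they do not say whether the arrays of a group are separate cultures. The p-values therefore measure the spread between these arrays, which may be technical. One protocol text of the labels names Kdm2b as the knocked-down gene, whereas all sample titles and the design text name Tdg.

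The rows that list Tdg, which also list its pseudogene Tdg-ps2, averaged 11.12, 11.20 and 11.10 in the control arrays and 8.24, 8.16 and 7.93 in the knockdown arrays (log2 signal). Their difference was -3.03 (SE 0.09), a signal of 12.2% of control, with a limma adjusted p of 8.79e-05 and the smallest exact permutation p that 3 arrays against 3 allow, 0.1. Knockdown replicate 3 stood apart on the first principal component (31.0, against -17.5 to 5.2 for the other 5 arrays), so counts are also given without it. The mean level of 10 embryonic stem cell markers was 12.19 to 12.23 in control and 12.17 to 12.26 in knockdown arrays. Of these, 0 passed the test. The mean over 4 neuroectoderm markers was 8.61 to 8.73 in control and 8.79 to 8.93 in knockdown arrays, and Pax6 among them passed (difference 0.93, limma adjusted p 0.0145), with Nes (-0.60) and Tubb3 (0.36) passing only with the replicate number as a block (adjusted p 0.0245 and 0.0423). The mean over 9 fibroblast markers was 7.31 to 7.48 and 7.23 to 7.49, with 1 call, Tagln (difference -0.88, adjusted p 0.0318). The means over 7 endoderm markers (6.67 to 6.83 and 6.73 to 7.03) and 5 trophoblast markers (7.78 to 7.83 and 7.73 to 7.83) overlapped between groups, with 0 calls. The part these markers, or the spread of knockdown replicate 3, have in the differences below was not tested. In bulk RNA, fewer cells of one kind and less RNA per cell cannot be told apart.

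Glycolysis splits glucose into pyruvate, which a cell either oxidises in its mitochondria or reduces to lactate and exports. Hypoxia-inducible factor (HIF) is a pair of proteins, an oxygen-regulated alpha subunit and a constant partner, that binds a short DNA core and raises transcription of glycolytic enzymes, glucose transporters and genes of vessel growth, mitophagy and collagen hydroxylation. When oxygen is present, prolyl hydroxylases of the Egln family mark the alpha subunit for destruction. Embryonic stem cells are known for high glycolytic flux even in oxygen.

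The stretches just before the transcription starts of 6 of these genes are shown because 5 of them hold the lowest differences between the groups (Hk1 in 1 of its rows) and the sixth, Ldha, is a textbook HIF target that hardly differed. Each is the 250 bases before a start, 5′ to 3′ on the gene's strand, from RefSeq in assembly GRCm38.p6. Capitals mark the HIF core, searched as ACGTG or GCGTG on either strand (read as CACGT or CACGC when on the other strand), with overlapping matches merged and counted once. The Hk1 stretch is chr10:62340422-62340671 on the minus strand, Pfkm chr15:98108221-98108470 on the plus strand, Vegfa chr17:46032378-46032627 on the minus strand, Egln3 chr12:54203875-54204124 on the minus strand, Bnip3 chr7:138909507-138909756 on the minus strand and Ldha chr7:46845554-46845803 on the plus strand.
Hk1: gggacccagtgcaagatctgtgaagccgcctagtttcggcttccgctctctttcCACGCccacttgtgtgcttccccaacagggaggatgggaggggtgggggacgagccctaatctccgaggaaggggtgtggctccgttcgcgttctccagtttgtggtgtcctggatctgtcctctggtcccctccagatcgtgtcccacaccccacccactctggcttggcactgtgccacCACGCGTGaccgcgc
Pfkm: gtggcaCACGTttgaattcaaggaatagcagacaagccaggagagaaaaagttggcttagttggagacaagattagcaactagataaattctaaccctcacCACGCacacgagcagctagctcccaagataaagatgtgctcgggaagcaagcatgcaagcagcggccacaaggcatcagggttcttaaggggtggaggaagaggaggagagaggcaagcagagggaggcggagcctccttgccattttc
Vegfa: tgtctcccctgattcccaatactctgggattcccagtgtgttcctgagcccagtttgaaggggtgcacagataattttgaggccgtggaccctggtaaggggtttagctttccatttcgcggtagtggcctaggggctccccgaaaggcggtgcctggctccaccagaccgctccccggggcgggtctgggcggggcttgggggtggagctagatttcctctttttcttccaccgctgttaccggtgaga
Egln3: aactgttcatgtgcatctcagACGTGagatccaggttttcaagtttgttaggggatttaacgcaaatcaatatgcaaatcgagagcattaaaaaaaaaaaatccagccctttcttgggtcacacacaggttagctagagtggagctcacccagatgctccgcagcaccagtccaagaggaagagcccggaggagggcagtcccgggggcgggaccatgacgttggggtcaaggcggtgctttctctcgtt
Bnip3: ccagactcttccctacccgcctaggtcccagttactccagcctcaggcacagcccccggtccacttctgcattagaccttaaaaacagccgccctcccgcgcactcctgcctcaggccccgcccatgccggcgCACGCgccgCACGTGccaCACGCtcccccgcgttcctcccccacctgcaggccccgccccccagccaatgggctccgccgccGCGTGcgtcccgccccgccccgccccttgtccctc
Ldha: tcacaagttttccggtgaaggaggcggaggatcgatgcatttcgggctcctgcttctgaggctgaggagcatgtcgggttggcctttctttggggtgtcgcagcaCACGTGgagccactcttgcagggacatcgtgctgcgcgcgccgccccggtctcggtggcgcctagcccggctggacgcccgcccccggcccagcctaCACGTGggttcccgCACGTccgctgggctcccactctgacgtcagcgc

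The core was found 4 times before the Bnip3 start, 3 times before Ldha, 2 times before Hk1, 2 times before Pfkm and 1 time before Egln3. The window before the Vegfa start shown holds 0 matches, which says only that these letters are not in this window. A window before another Vegfa start, chr17:46025164-46025413 on the minus strand, holds 2, and only through it does Vegfa count below among genes with a core. Before another Ldha start, the window chr7:46846832-46847081 on the plus strand holds 1. RefSeq gives Pfkm 4 starts, whose windows hold 1, 2, 1 and 0 matches, and the start with 2 is the one shown. A promoter entry was matched for 28 of the 31 measured genes. At least 1 core was found for 26 of these 28 (92.9%; Eno2 and Tpi1 are the exceptions), against 41.5% of 27025 genes with an entry. Per promoter the share was 79.5% of 39, against 38.6% of 32851. The core contains a CpG, and the windows of these genes hold a median of 14 CpGs against 6 over all promoters, so the counts are not matched for base composition. Matches describe sequence and not binding. Of the 8 genes with 3 or more matches in a window, Bnip3 and P4ha2 had lower signals in every knockdown array than in any control, Pfkp had higher ones, and the groups of Ldha, Pdk3, Ankrd37, Pgam1 and P4ha1 overlapped. Over all named genes, 11.0% were lower and 7.98% higher without overlap.

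Over the 31 measured genes, most signals were slightly lower in the knockdown arrays and none differed enough to pass the test. With limma and Benjamini-Hochberg adjustment over 19938 named genes at a threshold of 0.05, 0 of 31 were called higher and 0 lower, against 0.241% of all named genes called higher and 0.552% called lower. At an unadjusted limma p under 0.05, 6 of 31 were lower (19.4%, against 7.48% of all named genes) and 1 was higher (3.23%, against 5.03%). The 3 knockdown values lay below all 3 control values for 9 genes (29.0%, against 11.0% of all named genes) and above them for 3 (9.68%, against 7.98%), and overlapped for the other 19. The 31 genes were chosen with earlier results of these data known, so these shares are descriptions and not tests. The difference, knockdown minus control in log2 units throughout, was below 0 for 23 genes (74.2%) and above 0 for 8. Over all named genes it was below 0 for 8677 (43.5%) and above 0 for 11053. The median difference was -0.04, beside 0.02 over all named genes. It became -0.0225 with quantile normalization and -0.068 without control replicate 3.

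The median difference was lower over the 13 genes of oxygen sensing and hypoxia than over the genes of glycolysis, a contrast that was not tested. The median of the 13 was -0.14, with 6 of 13 lower without overlap (46.2%, against 11.0% of all named genes). The 18 measured genes of glucose uptake, glycolysis and pyruvate use had a median of -0.03, with 3 of 18 lower without overlap (16.7%, near that background). This count depends on the rows that the rule chose. Another row of Hk1 (difference -0.60) and another of Pgk1 (-0.06), both described below, were lower without overlap and are not in it. Centred on the control mean of each gene, the median over the 13 hypoxia genes was -0.18, -0.10 and -0.18 in the 3 knockdown arrays and -0.01, -0.01 and 0.00 in the controls. The same median over the 18 glycolysis genes was -0.05, -0.01 and -0.05 in the knockdown arrays. Without knockdown replicate 3, Vegfa alone was called lower (1 of 31, 3.23%, against 0.797% of all named genes), 5 of 31 were lower at an unadjusted p under 0.05 (16.1%, against 7.59%), and 11 were lower without overlap (35.5%, against 15.3%). With the replicate number as a block, Pfkm and Vegfa were called lower (2 of 31, against 2.01% of all named genes). These values hold only if equal numbers in the sample titles mark paired samples, which the labels do not say.

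**Figure D1:**
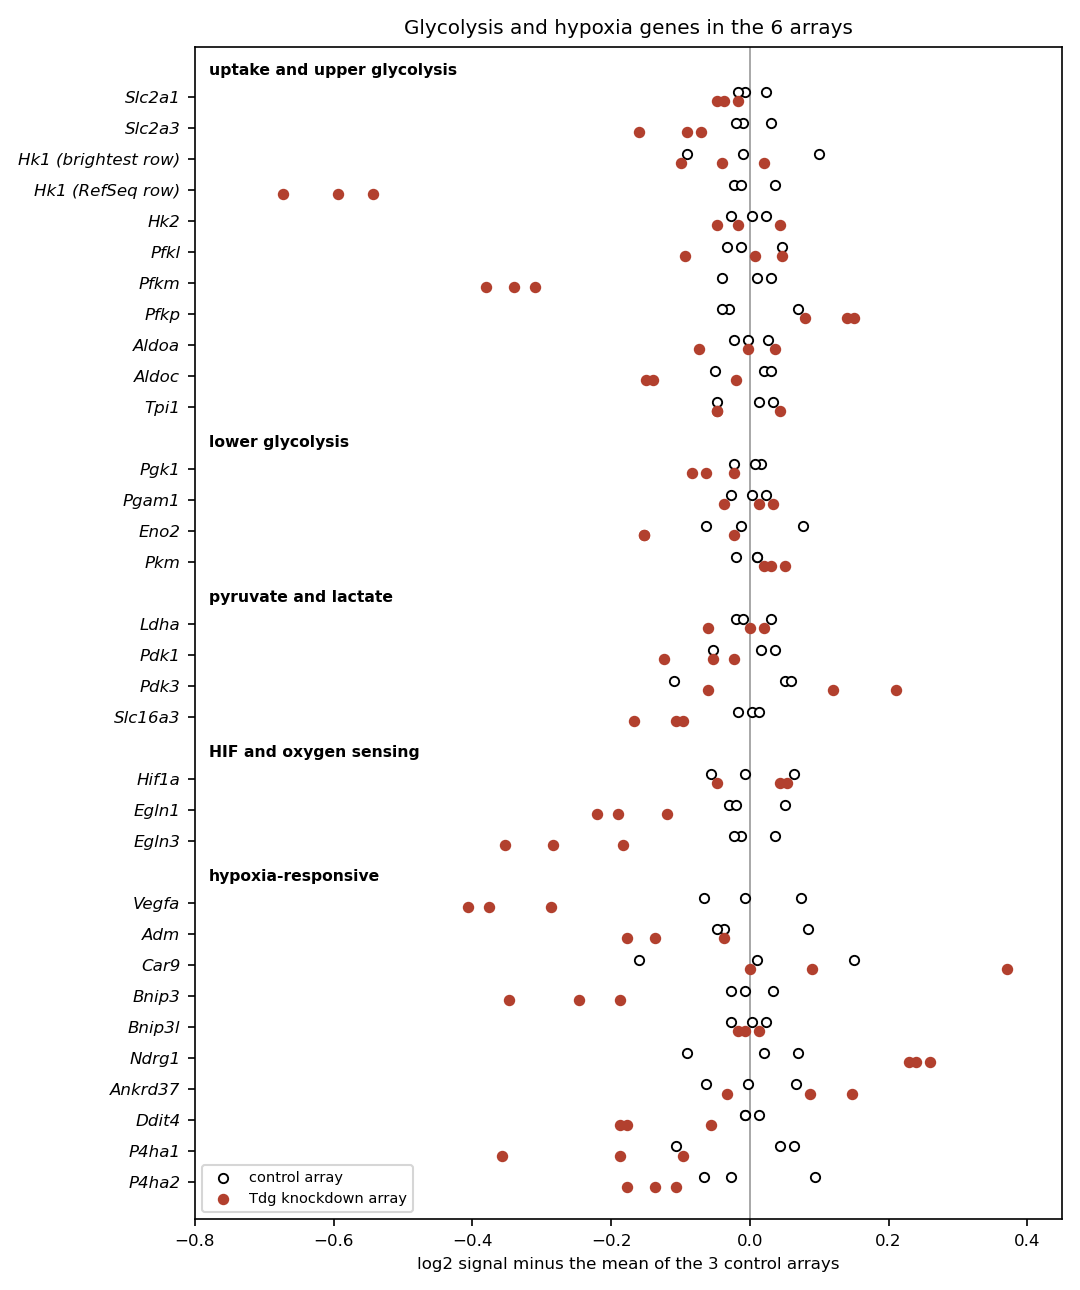
Log2 signal of the 31 measured genes in each array, minus the mean of the 3 control arrays of that gene (x axis), with genes grouped by role (y axis). Open circles are the 3 control arrays and filled circles the 3 Tdg knockdown arrays. Hk1 is drawn for its brightest row and for the row that lists RefSeq transcripts. The knockdown points of Pfkm, Vegfa, Egln3, Bnip3 and the RefSeq row of Hk1 lie to the left of all control points of the same gene, and those of Ndrg1 to the right.

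Uptake and the first steps of glycolysis were represented by the glucose transporters Slc2a1 and Slc2a3, the hexokinases Hk1 and Hk2, which trap glucose as its phosphate, the phosphofructokinase subunits Pfkl, Pfkm and Pfkp, which form the committed step, the aldolases Aldoa and Aldoc and the isomerase Tpi1. Among the rows that the rule chose for these genes, the largest difference was in Pfkm, the muscle-type subunit. Its signals were 10.30, 10.35 and 10.37 in control and 10.00, 10.03 and 9.96 in knockdown arrays. The means were 10.34 ± 0.04 and 10.00 ± 0.04 (SD, n = 3), so every knockdown array was below every control array by more than the spread within either group. The difference of -0.34 (SE 0.06, 95% interval -0.48 to -0.20), a signal of 78.8% of control, had a limma adjusted p of 0.0575, just above the threshold. The adjusted p was 0.0382 with the replicate block, and 0.0588 to 0.329 when each array was left out in turn.

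Neither of the other phosphofructokinase subunits was lower without overlap. Pfkp, the platelet-type subunit, read 11.86, 11.76 and 11.75 in control and 11.94, 11.93 and 11.87 in knockdown arrays, without overlap and in the other direction (difference 0.12, SE 0.06, limma adjusted p 0.503). Pfkl, the liver-type subunit, read 11.61, 11.69 and 11.63 in control and 11.55, 11.69 and 11.65 in knockdown arrays. Its groups overlapped, and its difference of -0.01 had a 95% interval of -0.17 to 0.14.

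Of the transporters, Slc2a3, the neuronal-type transporter, read 13.34, 13.30 and 13.29 in control and 13.24, 13.22 and 13.15 in knockdown arrays, a difference of -0.11 (SE 0.06, limma adjusted p 0.556) with no overlap. Slc2a1, the widespread transporter that HIF is known to induce, differed by -0.03, with an interval of -0.17 to 0.10. Of the remaining genes of this step, Aldoc differed by -0.10 and Aldoa, Tpi1 and Hk2 by -0.01, -0.02 and -0.01, all with overlapping groups. The interval for Hk2, the hexokinase induced by HIF, was -0.15 to 0.13.

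Hk1, the widespread hexokinase, gave different readings from its rows. The rule took the brightest row, which read 13.28, 13.17 and 13.09 in control and 13.20, 13.14 and 13.08 in knockdown arrays, with overlapping groups and a difference of -0.04 (SE 0.07, limma adjusted p 0.872). That row lists a single sequence record and 0 RefSeq transcripts. The same record stands on 18 rows, 16 of which list Hk1 together with Rpl17, a ribosomal protein gene, and these 16 read 11.91 to 13.39 with differences of -0.04 to 0.02. The only other row naming Hk1 alone lists 8 records, 2 of them RefSeq transcripts. It read 10.14, 10.08 and 10.09 in control and 9.51, 9.56 and 9.43 in knockdown arrays, so the groups lay well apart.

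In that RefSeq row of Hk1 the means were 10.10 ± 0.03 and 9.50 ± 0.07 (SD, n = 3), a difference of -0.60 (SE 0.06, 95% interval -0.75 to -0.45) and a signal of 65.8% of control. This row was singled out after its values were seen. When rows listing RefSeq transcripts were preferred for all genes, which changed the row of 37 genes, Hk1 was the 1 gene of the 31 called lower, against 0.577% of all named genes. Its limma adjusted p was 0.0157 there, 0.0149 with the replicate block and 0.0726 when all 35557 rows were tested together. With 1 array left out the adjusted p ran from 0.0124 (without knockdown replicate 3) to 0.143, and was above 0.05 for each of the other 5 arrays left out. The exact permutation p was 0.1, the smallest possible. Of the promoter windows of Hk1, the one printed above holds 2 cores and 14 CpGs, and the other, at chr10:62379909-62380158, holds 0 cores and 1 CpG.

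**Figure D2:**
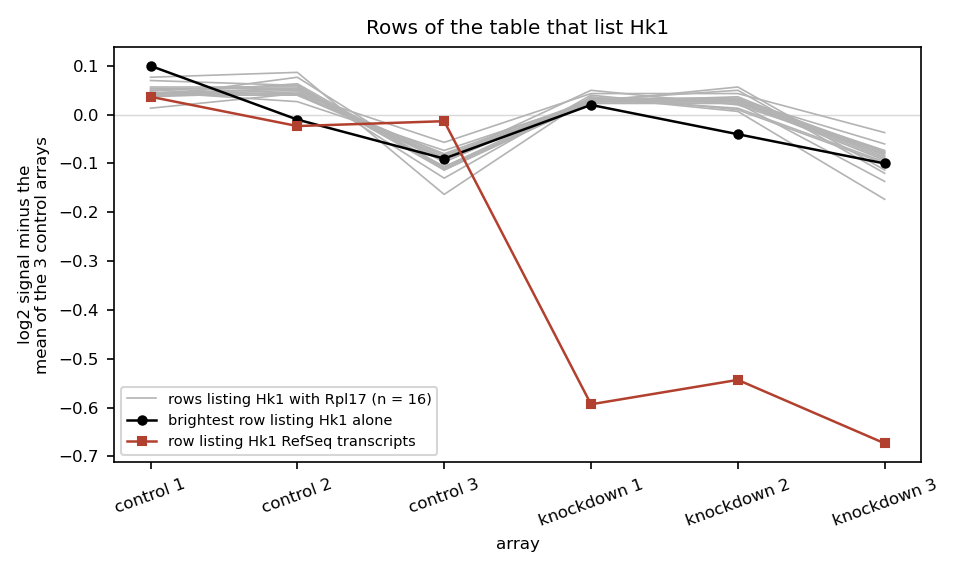
Log2 signal of every row that lists Hk1, minus the mean of its 3 control arrays (y axis), in the 6 arrays (x axis). Lines only join the values of one row. The RefSeq row lies between -0.67 and -0.54 in the knockdown arrays, while the brightest row naming Hk1 alone and the 16 rows shared with Rpl17 stay near 0.

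Lower glycolysis runs from phosphoglycerate kinase (Pgk1) through phosphoglycerate mutase (Pgam1) and enolase (Eno2, the neuronal isoform) to pyruvate kinase (Pkm). Of these 4 genes, 0 had an unadjusted limma p under 0.05. Eno2 read 8.25, 8.30 and 8.39 in control and 8.16, 8.29 and 8.16 in knockdown arrays, which overlapped (difference -0.11, SE 0.07, limma adjusted p 0.620, and -0.072 without control replicate 3). Pgk1, the kinase that makes the first ATP of the pathway and a standard HIF target, read 13.03, 13.02 and 12.99 against 12.93, 12.95 and 12.99 and differed by -0.06. Its 3 rows gave the same difference, but the row used and another hold identical values. The remaining row read 13.03, 13.01 and 12.99 against 12.92, 12.96 and 12.98, without overlap. Pkm read 12.42, 12.45 and 12.45 in control and 12.47, 12.46 and 12.49 in knockdown arrays. That was higher without overlap, but by 0.03 only (95% interval -0.10 to 0.17, limma adjusted p 0.865). A second row naming Pkm alone read 12.29, 12.34 and 12.37 against 12.31, 12.36 and 12.41, and its groups overlapped. Pgam1 differed by 0.00, with an interval of -0.13 to 0.14.

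Gapdh, glyceraldehyde phosphate dehydrogenase, has no row of its own. The 25 rows that list it with near-identical copies read 13.48 to 13.82, and their differences ran from 0.00 to 0.02, with overlapping groups in 24 of 25 and a lowest unadjusted limma p of 0.675. The copies share its sequence, so these rows cannot be assigned to Gapdh alone. Gpi1 and Eno1 were not analysed here.

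Pyruvate use was represented by lactate dehydrogenase A (Ldha), the pyruvate dehydrogenase kinases Pdk1 and Pdk3, which keep pyruvate out of the mitochondrial oxidation route, and the lactate exporter Slc16a3. Slc16a3 read 11.46, 11.48 and 11.49 in control and 11.31, 11.38 and 11.37 in knockdown arrays, without overlap (difference -0.12, SE 0.06, limma adjusted p 0.454). Ldha read 13.48, 13.43 and 13.44 against 13.47, 13.45 and 13.39, and its difference of -0.01 had an interval of -0.15 to 0.13. The kinases overlapped between groups and pointed in different directions. Pdk1 read 10.90, 10.92 and 10.83 against 10.83, 10.86 and 10.76 (difference -0.07), and Pdk3 read 10.65, 10.66 and 10.49 against 10.72, 10.81 and 10.54 (difference 0.09). In both kinases the arrays numbered 3 were the lowest of their group. With 1 array left out, the difference of Pdk3 ran from 0.03 (without knockdown replicate 2) to 0.17 (without knockdown replicate 3), with 0.035 without control replicate 3. That of Pdk1 ran from -0.09 to -0.038, the latter without knockdown replicate 3.

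**Figure D3:**
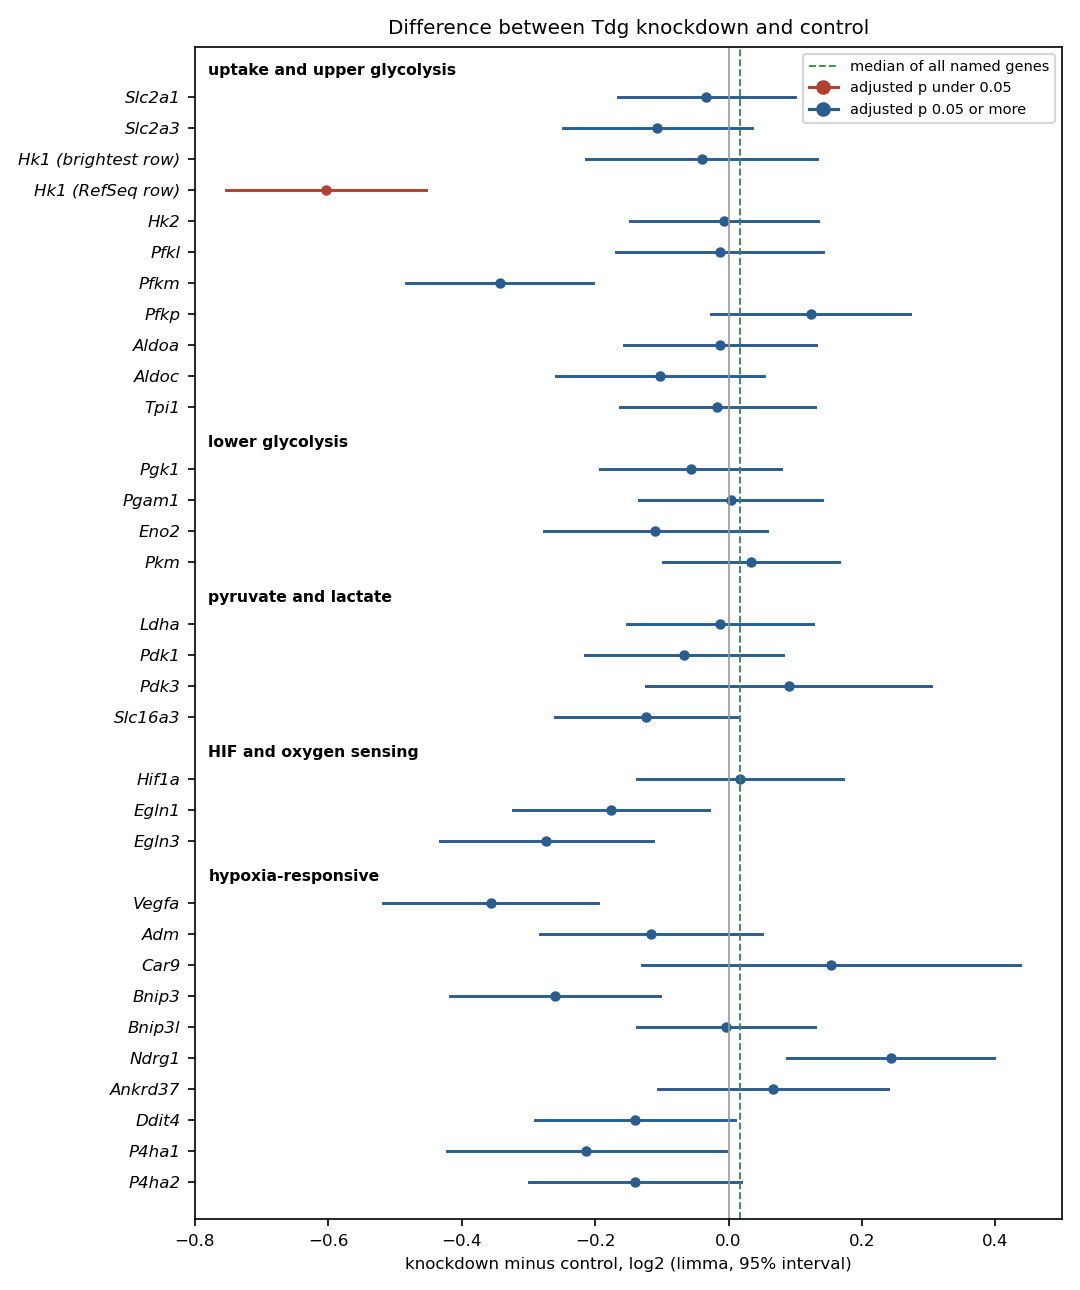
Difference between the 3 knockdown and the 3 control arrays for each measured gene, in log2 units (x axis), with the 95% interval from limma. Red marks an adjusted p under 0.05, which among the rows drawn only the RefSeq row of Hk1 has, and the dashed line is the median of all named genes (0.02). The intervals of Pfkm, Vegfa, Egln3, Bnip3, Egln1 and P4ha1 lie below 0 and that of Ndrg1 above 0, before adjustment over genes.

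The oxygen-sensing genes were Hif1a, the oxygen-regulated subunit of HIF, and the prolyl hydroxylases Egln1 and Egln3, which mark it for destruction. Hif1a RNA read 11.85, 11.78 and 11.73 in control and 11.83, 11.84 and 11.74 in knockdown arrays. The groups overlapped, and the difference of 0.02 had an interval of -0.14 to 0.17. HIF is chiefly regulated as a protein, which arrays do not measure. Egln3, itself a gene that HIF induces, read 10.43, 10.42 and 10.48 in control and 10.16, 10.26 and 10.09 in knockdown arrays. The means of 10.44 ± 0.03 and 10.17 ± 0.09 (SD, n = 3) did not overlap, but the difference of -0.27 (SE 0.07, 82.7% of control) had a limma adjusted p of 0.139. Egln1, the main oxygen sensor of the family, read 9.23, 9.15 and 9.16 against 8.99, 9.06 and 8.96. It too was lower in every knockdown array, by -0.18 (SE 0.06, limma adjusted p 0.303).

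Among the 10 genes known to respond to hypoxia, 4 were lower without overlap (against 11.0% of all named genes), 1 was higher (near the 7.98% of all named genes) and 5 overlapped. Vegfa, the growth factor of blood vessels and the best known HIF target, differed most. It read 9.94, 10.00 and 10.08 in control and 9.60, 9.63 and 9.72 in knockdown arrays, and the means of 10.01 ± 0.07 and 9.65 ± 0.06 (SD, n = 3) lay apart by more than the spread of either group. The difference was -0.36 (SE 0.07, 95% interval -0.52 to -0.20), a signal of 78.1% of control. Its limma adjusted p was 0.0786, and 0.0336 with the replicate block. Leaving out each array gave 0.0473 to 0.364, with the lowest, and a difference of -0.39, without knockdown replicate 3.

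Bnip3 and Bnip3l encode related receptors that direct mitochondria to autophagy. Bnip3 read 11.89, 11.93 and 11.87 in control and 11.65, 11.71 and 11.55 in knockdown arrays (difference -0.26, SE 0.07, 83.5% of control, limma adjusted p 0.152). A second row of Bnip3 read 11.05, 11.12 and 11.12 against 10.82, 10.93 and 10.87, also without overlap, with a difference of -0.22. Bnip3l read 12.71, 12.76 and 12.74 against 12.72, 12.75 and 12.73. Its difference was 0.00 with an interval of -0.14 to 0.13, and a second row of the gene also overlapped.

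Ndrg1, a stress-responsive gene that hypoxia is known to raise, went the other way. It read 9.36, 9.47 and 9.52 in control and 9.68, 9.71 and 9.69 in knockdown arrays, so that all knockdown arrays were above all controls. The means were 9.45 ± 0.08 and 9.69 ± 0.02 (SD, n = 3), and the difference of 0.24 (SE 0.07, 95% interval 0.09 to 0.40) had a limma adjusted p of 0.170.

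Ddit4, an inhibitor of mTORC1 signalling, read 11.00, 11.00 and 11.02 in control and 10.83, 10.95 and 10.82 in knockdown arrays (difference -0.14, limma adjusted p 0.436). The collagen prolyl hydroxylase subunits P4ha1 and P4ha2 were both on the low side. P4ha2 read 8.48, 8.36 and 8.32 against 8.28, 8.25 and 8.21, with no overlap and a difference of -0.14 (adjusted p 0.468). P4ha1 read 10.27, 10.25 and 10.10 against 10.02, 10.11 and 9.85. Its groups overlapped, although the difference of -0.21 (SE 0.09, adjusted p 0.389) was larger, since the array numbered 3 was the lowest of both groups. Without knockdown replicate 3 the P4ha1 difference was -0.14, a smaller value by more than 1.5 times.

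The remaining hypoxia genes overlapped between groups. Adm, the vasodilator peptide adrenomedullin, read 6.97, 7.09 and 6.96 in control and 6.83, 6.87 and 6.97 in knockdown arrays (difference -0.12, and -0.075 without control replicate 2). Ankrd37 differed by 0.07. Car9, a carbonic anhydrase that is among the most HIF-dependent genes known in tumour cells, read 5.95, 6.12 and 6.26 against 6.20, 6.11 and 6.48. These Car9 signals lay below the array medians (7.41 to 7.48), and its row was among the dimmest 1/3. Its spread was the largest of the 31 genes (SD 0.16 and 0.19, n = 3), and its difference of 0.15 had the widest interval, -0.13 to 0.44.

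Related enzymes were compared within arrays, where a shift shared by both genes cancels, as the log2 signal of one minus that of the other. Of 9 pairs, 5 had contrasts that did not overlap between groups. Each of the 5 had an exact two-sided permutation p of 0.1, the smallest possible, and 0.18 after Benjamini-Hochberg adjustment over the 9 pairs. All of these except Pdk3 with Pdk1 hold a gene whose own groups did not overlap, so they partly restate the values above. The share over other gene pairs was not computed. Of single named genes, 11.0% were lower and 7.98% higher without overlap. The contrast of Pfkm with Pfkp differed by -0.47 between control and knockdown arrays, and that of Pfkm with Pfkl by -0.33. It was 0.26 for Bnip3l against Bnip3, 0.16 for Pdk3 against Pdk1 and -0.07 for Slc2a3 against Slc2a1. The contrasts of Egln3 with Egln1 (-0.10, exact p 0.2), Aldoc with Aldoa (-0.09, exact p 0.3), P4ha2 with P4ha1 (0.07, exact p 0.4) and Hk2 with Hk1 (0.03, exact p 0.6) overlapped. With the RefSeq row of Hk1 the contrast of Hk2 with Hk1 was 0.60 and did not overlap (exact p 0.1).

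The wider pathway was read from lists of other genes, 119 in all, of which 111 were measured. Of these, 1 was called higher and 1 lower by limma, where 0.241% and 0.552% of all named genes were. At an unadjusted p under 0.05, 13 were higher (11.7%, against 5.03% of all named genes) and 14 lower (12.6%, against 7.48%). Among 18 regulators of HIF, 3 were higher at an unadjusted limma p under 0.05 (16.7%, against 5.03%) and 1 was lower (5.56%, against 7.48%). Epas1 alone was called, and it rose. It encodes HIF-2 alpha, the second oxygen-regulated subunit, and read 9.11, 9.06 and 9.00 in control and 9.55, 9.58 and 9.51 in knockdown arrays, with no overlap. Its difference was 0.49 (SE 0.06, 140% of control, limma adjusted p 0.0295), beside 0.02 for Hif1a.

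Among 33 other HIF targets, Ak4 fell. Ak4, a mitochondrial adenylate kinase, read 12.21, 12.18 and 12.14 in control and 11.64, 11.70 and 11.50 in knockdown arrays, a difference of -0.56 (SE 0.07, 67.7% of control, limma adjusted p 0.0312). Of all 33 targets, Ak4 included, 6 were higher (18.2%, against 5.03% of all named genes) and 9 lower (27.3%, against 7.48%) at an unadjusted p under 0.05, and their median was -0.02. Both calls ended when an array other than knockdown replicate 3 was left out. With 1 array left out, the adjusted p ran from 0.0217 to 0.208 for Epas1 and from 0.0196 to 0.208 for Ak4, under 0.05 only without knockdown replicate 3, and it was 0.0981 and 0.105 when all rows were tested.

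The other lists held 0 calls. Among 26 other genes of glycolysis and gluconeogenesis, with a median difference of -0.02, Eno3, the muscle enolase, differed by -0.29 (limma adjusted p 0.127, and 0.0491 with the replicate block) and Fbp1, a gluconeogenic phosphatase, by -0.51 (0.128, and 0.0404 with the block). Among 26 genes of mitochondrial pyruvate handling and the TCA cycle, with a median of 0.01, the smallest p belonged to Mpc1, a pyruvate carrier subunit (0.27, limma adjusted p 0.380), and Pdk2, another pyruvate dehydrogenase kinase (-0.18, adjusted p 0.392). Among 8 pentose phosphate genes, with a median of 0.00, it belonged to Rpia (0.27, limma adjusted p 0.160) and Pgd (0.13, adjusted p 0.408), both higher without overlap. In these lists 3, 1 and 0 genes were lower at an unadjusted limma p under 0.05 (11.5%, 3.85% and 0%, against 7.48% of all named genes). At the same threshold 2, 1 and 1 were higher (7.69%, 3.85% and 12.5%, against 5.03%).

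**Figure D4:**
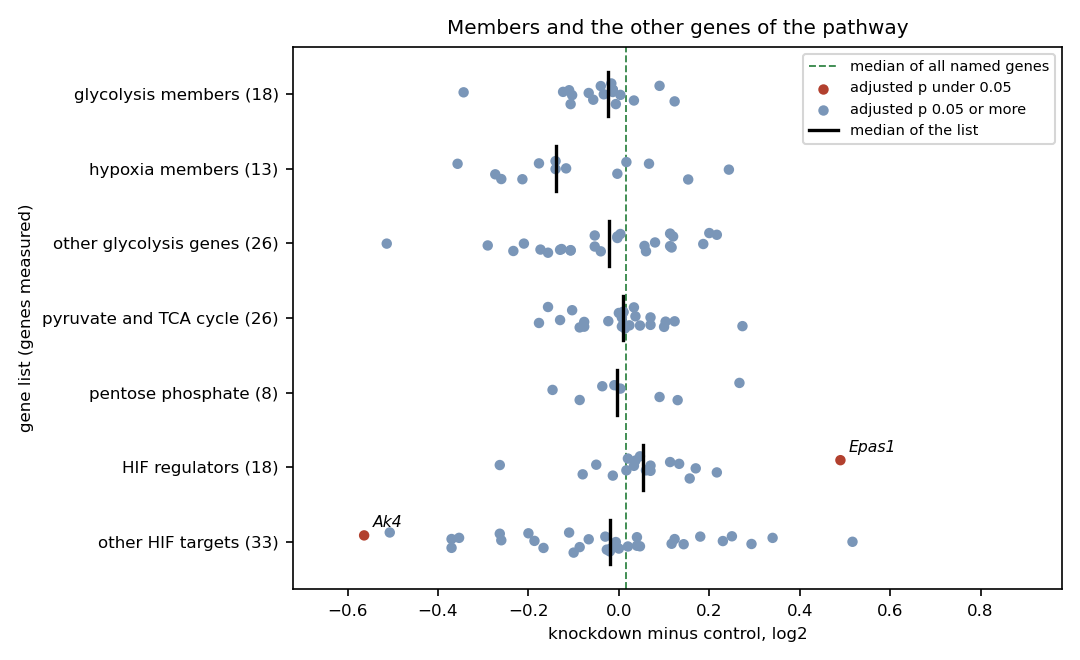
Difference between knockdown and control in log2 units (x axis) for each measured gene of 7 lists (y axis, number measured in brackets). Each point is a gene, the vertical bar the median of the list, the dashed line the median of all named genes (0.02), and red an adjusted p under 0.05. The bar of the 13 hypoxia genes stands at -0.14, those of the other lists between -0.03 and 0.05, and Epas1 and Ak4 are the red points.

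Whether the genes nearest to the threshold were called depended on how the spread between arrays was modelled. Pfkm and Vegfa were called lower by limma with the replicate block, after the dimmest rows were left out, with a trended and robust prior and with array weights. Bnip3 was called with the last 2 of these, and Egln3 and Ndrg1 with array weights alone. The same alternatives called more of all named genes, in either direction, than the 158 of the main fit. The count was 614 with the block, 351 without the dimmest rows, 446 with the prior and 1633 with array weights. The direction of Pfkm, Vegfa, Bnip3, Egln3 and Ndrg1 did not change under any alternative run. Leaving out an array could not reverse it, since the groups of these genes did not overlap. The block, the prior and the removal of dim rows leave the difference itself as it was.

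**Figure D5:**
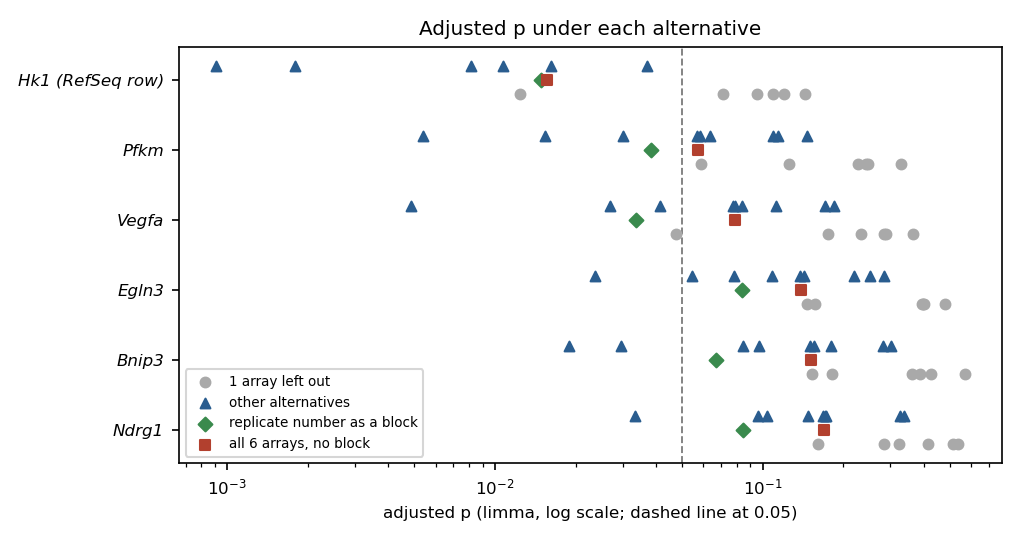
Adjusted p from limma (x axis, log scale) for 6 genes (y axis) under each alternative, with the dashed line at 0.05. Squares are the fit of all 6 arrays without a block, diamonds the replicate block, triangles the other alternatives and circles the fits with 1 array left out. The square of the RefSeq row of Hk1 is left of the line, and those of Pfkm (0.0575), Vegfa (0.0786), Egln3, Bnip3 and Ndrg1 are right of it.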

How the data were processed

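The deposited table holds log2 signals, 1 per probe set and array, made by the authors; the submitters' processing notes name Affymetrix Expression Console. How probes were summarised and arrays normalized is not stated there. The log2 scale was read from the range of the deposited values (2.26 to 14.03), array medians were 7.41 to 7.48, and no further normalization was applied. The number of arrays limits the precision.

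Of 35557 rows, 21789 list 1 gene in the platform annotation, 1621 several and 12147 none. Only rows with 1 gene were named, except those of Tdg and Gapdh and the shared rows of Hk1. The genes and lists were chosen with earlier results of these data known. Every measured gene among the 34 is named with its difference. Other genes are named where they passed the threshold, or as the 2 with the smallest p of their list.

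Groups were compared with limma 3.58.1 in R 4.3.3 (lmFit, eBayes, two-sided) over 19938 genes. The procedure was also run on simulated data, but no outcome of that run is given here. It therefore does not show whether differences as small as those reported could be called. Deviations of equally numbered arrays correlated at 0.61, 0.23 and 0.70. The replicate number was therefore used as a block in an alternative fit, while the main fit held no block. These correlations do not establish that the arrays are paired. The alternatives were the block, quantile normalization, median centring, leaving out the dimmest 1/3 of rows, a trended and robust prior, array weights (gene-by-gene method), the mean of a gene's rows, all rows, and left-out arrays. Preferring RefSeq rows was added after seeing the data. Promoters come from RefSeq (GRCm38.p6). Exact tests used scipy 1.17.1.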

Additional observations from a re-analysis of the deposited data

Results flagged for a closer look

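The row of the table that lists RefSeq transcripts of Hk1 was not used under the rule for rows, and it holds a difference of -0.60 between knockdown and control. The controls read 10.14, 10.08 and 10.09 and the knockdown arrays 9.51, 9.56 and 9.43. The brightest Hk1 row, which the rule used, differed by -0.04, and the mean of both rows by -0.32 (limma adjusted p 0.0903).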

How the results depend on the processing

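Tdg kept its direction and its call under every alternative run. The count of named genes past the threshold was 158, against 614 with the replicate block, 351 without the dimmest rows, 446 with a trended and robust prior, 1633 with array weights, 12 over all rows and 0 to 291 with 1 array left out (291 without knockdown replicate 3, 15 or fewer without any other). Of the 31 genes, 0 were called lower (0.552% of all named genes were), against 2 with the block (2.01%) and 1 with RefSeq rows (0.577%). With 1 array left out it was 0 to 1, the 1 being Vegfa without knockdown replicate 3 (0.797%). It was 2 without the dimmest rows, 3 with the trended and robust prior and 4 with array weights. With array weights 1 was also called higher. Shares of all named genes by direction are not given for these last alternatives, whose counts over all named genes had risen as stated. Of the other pathway genes 2 were called, against 6 with the block (Ak4, Epas1, Eno3, Fbp1, Mt1 and Tmem45a), 4 with the trended and robust prior, 19 with array weights, 0 over all rows and 0 to 3 with 1 array left out. The counts of all named genes above rose and fell in the same alternatives. The median difference of -0.04 became -0.0225 with quantile normalization and -0.070 with array weights, and ran from -0.068 to -0.038 with 1 array left out. Among uncalled values, 9 of the 31 genes changed sign under some alternative. Quantile normalization, median centring and the mean of a gene's rows left the number of calls among the 31 genes at 0. Among the genes and lists reported, the block changed no other call. Signal over background was not analysed here.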
